A study of Oncorhynchus mykiss with 38 samples.

Results

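Cyp17a1, hsd3b1 and hsd11b2 encode enzymes of steroid synthesis and conversion, and each was represented by a single cDNA clone on a nylon microarray of rainbow trout (Oncorhynchus mykiss) genes. The members were found by clone name (tcaa0002.m.12 for cyp17a1, tcay0013.h.14 for hsd3b1 and tcbk0050.f.13 for hsd11b2), and the platform annotation gave the same gene symbols. These were 3 of the 9216 entries of the value table, of which 192 were empty, and all 3 had a value on each of the 38 arrays. Their signals were described in whole testes over the male reproductive cycle and in isolated germ cells.

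Androgens of the testis are made from cholesterol, mainly in the interstitial Leydig cells, under the control of luteinizing hormone. Cyp17a1 hydroxylates pregnenolone and progesterone and then cleaves their side chain, which opens the route to androgens. Hsd3b1 oxidises the steroid ring of pregnenolone and of the steroids that cyp17a1 makes from pregnenolone, and so yields progesterone and androstenedione. In teleost fish, hsd11b2 carries out the last step towards 11-ketotestosterone, the main androgen of male fish, and the same enzyme inactivates cortisol.

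The samples came from untreated male trout of a farm stock, and their ages were not given in the sources used here. The 3 germ cell fractions were enriched in spermatogonia (6 samples), spermatocytes (6 samples) and spermatids (3 samples). Whole testes were at stage I, with type A spermatogonia only (5 samples), stage IIa, with rare type B spermatogonia (4 samples), stage IIb, with growing numbers of these (4 samples), stage IIIb, with meiotic spermatocytes (3 samples), stage V, with spermatids (4 samples), and stage VIII, the spawning testis with mostly spermatozoa (3 samples). Fractions were elutriated from collagenase-digested pools of testes, the spermatogonia from immature fish and the others from maturing fish, and were enriched rather than pure. Immature, maturing and spawning testes were collected in different seasons, so stage and season cannot be told apart. Nothing states that samples of a stage came from separate animals, and p-values therefore measure the spread between these samples. All values are log2 signals after the authors' quantile normalization, and 1 unit is a doubling. Every array had a median of 8.166, which the study took as background, and signals ran between 5.308 and 13.379. The amount of spotted cDNA and the clone differ from spot to spot, so levels of different clones were not set against each other, and only changes of a clone are compared. A fold marked as at least that size is a bound, for which each signal under background was raised to it. Judged by the marker lists used below, spermatid replicate 2, stage VIII replicate 1 and stage I replicate 1 were among the arrays that stood apart from their groups. The mean of the 3 spermatid clones was 8.72 in spermatid replicate 2 and 10.26 and 10.46 in the other spermatid fractions, and that of the 2 immune clones was 8.92 against 7.17 and 7.31. Of these 2 immune clones, mmp9 was unequal among the spermatid fractions (SD 1.86) and cxcl14 was not (SD 0.12). In stage VIII replicate 1 the spermatid mean was 9.004, against 7.597 and 7.404 in the other spawning testes, and sycp3, a component of the meiotic chromosome axis, was at 9.22, against 7.93 and 8.18. In stage I replicate 1 the mean of the 3 Leydig cell clones was 7.83, against 8.64 to 8.85 in the other stage I testes. Other clones of this array were not low. Star, planned as a Leydig cell marker, was at 9.87, against 9.17 to 9.77 in the other stage I testes. Cyp17a1 was at 10.54, against 9.92 to 10.78. The same array had the lowest stage I signal of hsd11b2 (9.40). Without it, hsd11b2 changed by -1.78 in stage V against stage I, and by -1.68 with it.

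The cyp17a1 signal was high in immature testes, low in maturing testes and in germ cells, and highest at spawning. On the 6 spermatogonia arrays it was between 7.80 and 9.07 (median 8.78), and on the 6 spermatocyte arrays between 7.86 and 8.52 (median 8.27). The spermatid arrays gave 8.31, 8.26 and 8.99. Among these 15 fractions, 1 spermatogonia array and 3 spermatocyte arrays were under background. The stage I testes gave 10.54, 9.92, 10.45, 10.55 and 10.78. Stage IIa testes gave 10.27, 9.95, 10.42 and 10.10, and stage IIb testes gave 9.54, 10.22, 10.17 and 10.11. These 3 immature groups overlapped each other. The stage IIIb values were 8.69, 8.67 and 9.29, the stage V values 8.67, 8.63, 8.41 and 8.82, and the stage VIII values 11.15, 11.80 and 12.02. All 7 maturing testes were below all 13 immature testes, and the 3 spawning testes were above every other array.

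The hsd3b1 signal had the same low point in maturing testes, but at spawning it came back to the level of immature testes. The 6 spermatogonia arrays were between 9.02 and 9.99 (median 9.39), the 6 spermatocyte arrays between 8.68 and 9.59 (median 9.20), and the spermatid arrays at 8.82, 8.60 and 9.05. No array of the series was under background for this clone. Stage I testes gave 10.18, 10.05, 10.57, 10.53 and 10.76, stage IIa testes 10.90, 10.81, 10.84 and 10.51, and stage IIb testes 10.49, 10.13, 10.84 and 10.50. Stage IIIb testes gave 9.28, 9.25 and 9.40, stage V testes 8.82, 8.93, 9.05 and 8.95, and stage VIII testes 9.91, 10.74 and 10.68. The maturing testes were below all immature and spawning testes, and 2 of the 3 spawning values were inside the range of stage I.

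The hsd11b2 signal was near background in germ cells and in stage V testes, intermediate in stage IIIb and highest at spawning. The 6 spermatogonia arrays were between 7.34 and 8.49 (median 7.88), the 6 spermatocyte arrays between 7.55 and 8.39 (median 7.88), and the spermatid arrays at 7.80, 7.86 and 7.65. Of these fractions 4 spermatogonia, 4 spermatocyte and all 3 spermatid arrays were under background. Stage I testes gave 9.40, 10.21, 9.88, 9.62 and 9.93, stage IIa testes 10.22, 9.63, 9.89 and 9.65, and stage IIb testes 9.60, 9.43, 9.62 and 8.91. Stage IIIb testes gave 8.39, 8.66 and 8.74, stage V testes 8.05, 8.13, 8.40 and 7.92, and stage VIII testes 10.78, 10.31 and 10.94. At stage V, 3 of 4 testes were under background, and the 3 spawning testes were above every other array.

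**Figure D1:**
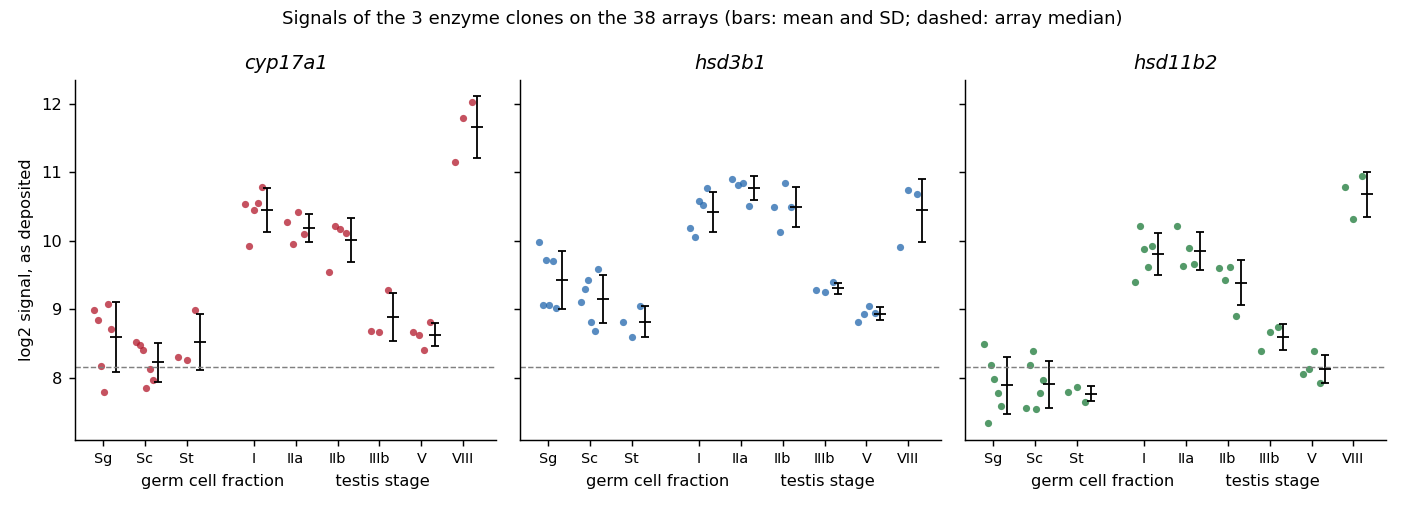
Log2 signal of the cyp17a1, hsd3b1 and hsd11b2 clones on each of the 38 arrays (points), with the mean and SD of each group (bars); Sg, Sc and St are the spermatogonia, spermatocyte and spermatid fractions, I to VIII the testis stages, and the dashed line is the array median of 8.166. The stage VIII values stand above all other groups for cyp17a1 and hsd11b2, while those of hsd3b1 lie between 9.91 and 10.74, beside the immature stages.

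All 3 clones varied over the 9 groups. By limma's F-test, taken at an adjusted p of 0.005, which 44.2% of all clones passed, the adjusted p was 1.5e-14 for cyp17a1 (F = 47.1), 3.6e-11 for hsd3b1 (F = 25.6) and 7e-15 for hsd11b2 (F = 49.8). Ranked by this test among all clones with values, they stood at 43, 251 and 37 in that order. In a permutation F-test of each clone, 0 of 100000 permutations gave an F as large (p = 1e-05 each, the smallest that this number can give).

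The first question was how the enzymes changed as germ cells entered meiosis. None of the 3 clones passed between the immature stages, where 0.0111% of all clones passed for stage IIa over stage I and 0.233% for stage IIb over stage I. Between stages IIb and IIIb all 3 fell, in a comparison in which 3.11% of all clones were lower. The change was -1.13 ± 0.26 for cyp17a1 (SE, adjusted p = 0.0053 by limma), -1.18 ± 0.23 for hsd3b1 (adjusted p = 0.0013) and -0.79 ± 0.23 for hsd11b2 (adjusted p = 0.029). These were 2.19-fold, 2.27-fold and 1.73-fold lower signals, and stage IIIb values did not overlap stage IIb values for any of the clones. With 3 and 4 arrays such separation also occurred in clones that were not called, and its share over all clones was not counted. The hsd11b2 call was lost in 6 of 7 fits that left out 1 of these arrays (highest adjusted p = 0.15 by limma). It held only without stage IIb replicate 4. The cyp17a1 call was lost without stage IIIb replicate 2 (adjusted p = 0.05 by limma).

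Between stages IIIb and V no clone of the array passed (0%), and the 3 enzyme clones changed by -0.25, -0.37 and -0.47. Without stage IIIb replicate 3 the change of cyp17a1 was -0.049. Over the whole of maturation, stage V against stage I, cyp17a1 fell by 1.82 ± 0.22 (SE, adjusted p = 9.7e-08 by limma), hsd3b1 by 1.48 ± 0.20 (adjusted p = 5.3e-07) and hsd11b2 by 1.68 ± 0.20 (adjusted p = 6.2e-08). As folds, the stage V signals were 3.53 times lower for cyp17a1, 2.80 times for hsd3b1 and at least 2.997 times for hsd11b2, which was under background on 3 of 4 stage V arrays, beside 15.7% of all clones that were lower. In tissue of mixed cells, a smaller share of steroid-producing cells and less RNA in each of them cannot be told apart.

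Other clones for somatic cells moved with this fall, in a comparison in which 15.7% of all clones were lower and 15.2% were higher. The 3 clones listed for Leydig cells (igfbp7, ghr2 and tgfbr3) were all lower at stage V than at stage I, and their mean level was between 7.66 and 7.80 in stage V testes and between 7.83 and 8.85 in stage I testes. The value of 7.83 was that of replicate 1, and the other stage I testes were at 8.64 to 8.85. The study chose these 3 Leydig cell genes on the same samples, so that their direction is not independent evidence. Its in situ hybridization also found igfbp7 in vessel endothelium, so this clone does not mark Leydig cells alone. Star and lhcgr, also planned as Leydig cell markers, were counted with the steroid pathway instead. At stage V against stage I star changed by -1.67, with all 4 stage V arrays under background. Lhcgr was under background on all arrays of both stages. Collagens and tcf23, listed for the peritubular cells and matrix, were lower for 4 of 5 clones, and the Sertoli cell list was lower for 2 of 4 clones. Both clones listed for immune cells were lower, mmp9 by 1.86 (change -1.86) and cxcl14 by 0.84 (change -0.84), with a mean level of 7.25 to 7.70 in stage V testes and 8.41 to 8.99 in stage I testes. Red blood cell clones (haemoglobins, cahz and ae1) were lower for 8 of 10, at 9.10 to 9.83 in stage V testes and 10.14 to 11.25 in stage I testes. Of the germ cells, sycp3 was higher by 2.16 and all 3 spermatid clones (cetn4, spata4 and txndc6) were higher. Of the 2 clones listed for the germ line, ddx4 was higher (0.74) and piwil2 lower (-0.74). The part of these cells in the change of the enzymes was not tested.

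The spawning testis was then compared with the maturing testis. All 3 enzymes were higher at stage VIII than at stage V, where 18.1% of all clones were higher. The change was 3.02 ± 0.26 for cyp17a1 (SE, adjusted p = 1.9e-11 by limma), 1.51 ± 0.23 for hsd3b1 (adjusted p = 2.3e-06) and 2.55 ± 0.23 for hsd11b2 (adjusted p = 8.1e-11), so that stage VIII signals were 8.14 and 2.85 times those of stage V for the first 2 and at least 5.48 times for hsd11b2. By size of change in either direction cyp17a1 ranked 31 and hsd3b1 462 among all clones with values. Most marker lists changed in the same comparison. All 3 Leydig cell clones, 4 of 5 peritubular and matrix clones, 2 of 4 Sertoli cell clones, both immune cell clones (cxcl14 by 3.53) and all 10 red blood cell clones were higher. Mean levels were 9.81 to 10.16 in stage VIII testes and 7.25 to 7.70 in stage V testes for the immune list, and 12.17 to 12.28 and 9.10 to 9.83 for the red blood cell list. Sycp3 (-2.89), ddx4 (-2.35) and all 3 spermatid clones were lower, beside 19.3% of all clones. The part of these cells in the change of the enzymes was not tested.

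Set against stage I, spawning testes had more cyp17a1 signal by 1.21 ± 0.24 (2.31-fold, adjusted p = 0.00035 by limma) and more hsd11b2 signal by 0.87 ± 0.22 (1.83-fold, adjusted p = 0.0033), where 11.3% of all clones were higher. Neither clone overlapped between these stages, and the share of all clones without overlap was not counted. Hsd3b1 differed by 0.02 ± 0.22 (adjusted p = 0.95), with a 95% interval between -0.42 and 0.47. Stage VIII replicate 1 was the lowest spawning testis for hsd3b1 and cyp17a1, and without it hsd3b1 differed by 0.29 (adjusted p = 0.42 by limma), while the calls of cyp17a1 (1.46, adjusted p = 0.00018) and hsd11b2 (0.82, adjusted p = 0.021) held. This comparison and that of stage V with stage I share their stage I arrays. The red blood cell list was higher in stage VIII than in stage I for 8 of 10 clones, with mean levels of 12.17 to 12.28 in stage VIII testes and 10.14 to 11.25 in stage I testes. Of the 2 immune cell clones cxcl14 was higher, by 2.69 (adjusted p = 9.6e-11), and mmp9 was not called (-0.42, adjusted p = 0.49 by limma). Their mean, 9.81 to 10.16 in stage VIII testes and 8.41 to 8.99 in stage I testes, was thus raised by cxcl14 alone. Ddx4 (-1.62) and piwil2 (-0.97), listed for the germ line, were lower, beside 12.9% of all clones. Of the Leydig cell list, igfbp7 and tgfbr3 were higher in stage VIII and ghr2 was not called, with mean levels of 9.13 to 9.40 in stage VIII testes and 7.83 to 8.85 in stage I testes. Among the 4 Sertoli cell clones dmrt1 and 1 of 2 sox9 clones were higher and clu was lower. The mean level of the peritubular and matrix list was 11.55 to 12.03 in stage VIII testes and overlapped the 11.83 to 12.07 of stage I testes. The part of any of these cells in the results was not tested.

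A call for cyp17a1 and not for hsd3b1 does not show that their changes differ, so the difference of both signals was taken within each array and compared between immature (stages I, IIa and IIb), maturing (stages IIIb and V) and spawning testes. The difference of cyp17a1 minus hsd3b1 was 1.24, 1.06 and 1.34 in the 3 spawning testes. It was between -0.63 and -0.11 in the 7 maturing testes and between -0.94 and 0.36 in the 13 immature testes. All spawning values stood apart from all others. The change of cyp17a1 thus exceeded that of hsd3b1 by 1.57 in spawning against maturing testes (two-sided exact permutation test, p = 0.017, adjusted p = 0.037 over 9 tests) and by 1.53 in spawning against immature testes (exact p = 0.0036, adjusted p = 0.032). Both p-values are the smallest that these numbers of arrays allow.

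The difference of hsd11b2 minus hsd3b1 was 0.87, -0.43 and 0.26 in spawning testes, between -1.02 and -0.58 in maturing testes and between -1.59 and 0.16 in immature testes. Spawning values were above all maturing values, and 2 of 3 were above all immature values. The excess of hsd11b2 over hsd3b1 was 1.00 in spawning against maturing testes (exact p = 0.017, adjusted p = 0.037) and 1.09 in spawning against immature testes (exact p = 0.0071, adjusted p = 0.032). For cyp17a1 minus hsd11b2, the spawning values of 0.37, 1.48 and 1.08 overlapped both other classes. The corresponding differences of 0.56 (exact p = 0.12) and 0.43 (exact p = 0.16) did not pass, and leaving out 1 spawning testis moved them between 0.31 and 0.87 and between 0.18 and 0.74. Between maturing and immature testes the 3 pairs differed by -0.04, -0.13 and 0.09 (exact p between 0.5 and 0.8). The immature stages were unlike for cyp17a1 minus hsd3b1, at -0.13 to 0.36 in stage I and -0.86 to -0.42 in stage IIa. Stage V gave -0.63 to -0.13, so the pooled classes do not show that both clones fell equally from stage I. With 3 spawning testes, the calls of cyp17a1 and hsd11b2 against hsd3b1 are at the limit of the test. All 10 leave-outs of a single array ended the spawning against maturing call of both pairs (adjusted p between 0.054 and 0.12), and leaving out any 1 of the spawning arrays ended the spawning against immature call. With an array fewer, the smallest p that the exact test can give is larger, so these losses do not single out any array.

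**Figure D2:**
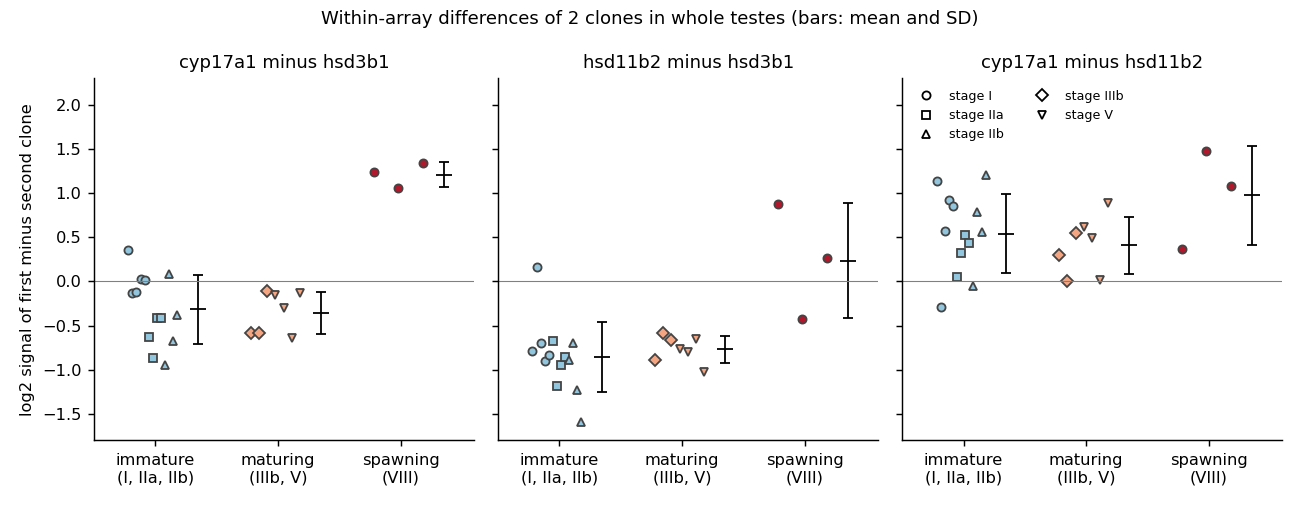
Log2 signal of the first clone minus that of the second on the same array, in immature (stages I, IIa and IIb, 13 arrays), maturing (stages IIIb and V, 7 arrays) and spawning testes (stage VIII, 3 arrays), with mean and SD (bars) and marker shapes for the stages. In the first panel the 3 spawning arrays lie at 1.06 to 1.34, above all others, whereas in the third panel the classes overlap.

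The germ cell fractions addressed which cells carry the signals. Spermatogonia fractions, which came from immature fish, had less signal of all 3 enzymes than stage I testes, where 13.2% of all clones were lower. The change was -1.85 ± 0.20 for cyp17a1 (SE, at least 3.45-fold lower, with 1 of 6 spermatogonia arrays under background, adjusted p = 7e-09 by limma). It was -0.99 ± 0.18 for hsd3b1 (1.99-fold lower, adjusted p = 7.3e-05 by limma). Hsd11b2 changed by -1.91 ± 0.18 (at least 3.001-fold lower, with 4 of 6 spermatogonia arrays under background, adjusted p = 3.9e-10 by limma). None of the 3 clones overlapped, and the share of all clones without overlap was not counted. Somatic cell clones were lower in the same comparison for 3 of 3 on the Leydig cell list, 5 of 5 on the peritubular and matrix list and 3 of 4 on the Sertoli cell list, with a mean Sertoli level of 7.59 to 8.19 in spermatogonia fractions and 8.85 to 9.20 in stage I testes. Of the Leydig cell markers counted with the steroid pathway, star changed by -0.66, which did not pass. Lhcgr was under background on all arrays of both groups. Red blood cell clones were lower for 1 of 10, and their mean level of 9.48 to 11.29 in spermatogonia fractions overlapped that of stage I. Both immune cell clones were lower, with a mean of 7.48 to 8.06 in spermatogonia fractions and 8.41 to 8.99 in stage I testes, and ddx4 was higher by 1.37. The part of remaining somatic cells in the fractions' signals was not tested.

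Few changes were called between the germ cell fractions. Spermatocytes against spermatogonia gave -0.37 for cyp17a1, -0.27 for hsd3b1 and 0.01 for hsd11b2, and none of the 3 passed (14.9% of all clones were lower), although cyp17a1 did without spermatogonia replicate 4 (-0.53, adjusted p = 0.031 by limma). Hsd11b2 was under background on most of these arrays, so that a fall could not have been measured. Spermatids against spermatogonia gave a fall of hsd3b1 alone, of 0.60 ± 0.21 (adjusted p = 0.038 by limma), where 11.6% of all clones were lower. That call was lost without any 1 of the spermatid arrays and without spermatogonia replicate 1, 3 or 5 (highest adjusted p = 0.13). Spermatid replicate 2, the fraction with the least signal of the spermatid clones, also had the lowest hsd3b1 value, and without it the change was -0.49 (adjusted p = 0.13). The fractions were also close to stage V testes. No enzyme clone passed between spermatogonia and stage V, a comparison in which 21.7% of all clones passed in either direction, and none between spermatocytes and stage V (6.79% of all clones). Hsd3b1 was the nearest to a call, at 0.49 in spermatogonia against stage V (adjusted p = 0.067), and it passed without spermatogonia replicate 2, 4 or 6 (adjusted p between 0.035 and 0.043).

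Ordered by their means, the groups of cyp17a1 ran stage VIII (11.66), I (10.45), IIa (10.19), IIb (10.01), IIIb (8.88), V (8.63), spermatogonia (8.60), spermatids (8.52) and spermatocytes (8.23). Between neighbours in this order, differences passed at an adjusted p of 0.05 only for stage VIII over stage I and for stage IIIb under stage IIb. For hsd11b2 the order was stage VIII (10.68), IIa (9.85), I (9.81), IIb (9.39), IIIb (8.60), V (8.13), spermatocytes (7.90), spermatogonia (7.89) and spermatids (7.77). Neighbours passed at 2 places, for stage VIII over stage IIa (0.83, adjusted p = 0.0081 by limma, where 23.4% of all clones passed in either direction) and for stage IIIb under stage IIb. The call for stage VIII was lost without stage VIII replicate 3 (0.70, adjusted p = 0.055). For hsd3b1 the order was stage IIa (10.77), IIb (10.49), VIII (10.44), I (10.42), spermatogonia (9.43), IIIb (9.31), spermatocytes (9.15), V (8.93) and spermatids (8.82). The only neighbouring difference of hsd3b1 that passed was spermatogonia under stage I.

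The neighbours of the 3 enzymes on the steroid pathway with a symbol in the platform annotation were 14 clones of 12 genes. They fell in 3 lists for cholesterol supply and import, steroid synthesis and conversion, and the control and reception of steroids. This annotation named 678 clones, and the study's own annotation also lists Cyp11a1 and Akr1d1, which are not among the 14. The calls of the 14 clones did not run one way. At stage VIII against stage I, 4 of 14 clones were higher (star, npc2, lhcgr and esr1; 11.3% of all clones were) and 1 was lower (igf1; 12.9% of all clones were), with a median change of 0.36 against -0.04 over all clones. At stage VIII against stage V, 5 were higher (star, npc2, lhcgr, esr1 and cyp11b) and 3 were lower, beside 18.1% and 19.3% of all clones. At stage V against stage I, 3 were higher and 3 were lower, beside 15.2% and 15.7%, and in spermatogonia against stage I, 1 was higher and 4 were lower, beside 13.4% and 13.2%. The median changes were 0.08, -0.08 and -0.25 in these 3 comparisons, against -0.03, -0.04 and 0.03 over all clones.

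Star encodes the steroidogenic acute regulatory protein, which brings cholesterol into the mitochondrion for the first cleavage. Its signal was 10.75, 11.66 and 12.40 in stage VIII testes, against 8.12, 7.79, 7.71 and 7.84 in stage V testes. In stage I testes it was 9.87, 9.39, 9.17, 9.47 and 9.77. The spawning testes were above all others with a wide spread (SD 0.83), and star was at least 10.9-fold higher than in stage V, where all 4 arrays were under background (adjusted p = 8.1e-11 by limma), and changed by 2.07 ± 0.32 against stage I (adjusted p = 1.1e-05). It fell between stages IIb and IIIb by 1.10 (adjusted p = 0.041), with 2 of 3 stage IIIb arrays under background. In spermatogonia against stage I it changed by -0.66, which did not pass (adjusted p = 0.063).

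Like star, npc2, a carrier that exports cholesterol from lysosomes, was higher in stage VIII than in stage I, by 0.73 (adjusted p = 0.0025 by limma), and than in stage V, by 0.90 (adjusted p = 0.00022). Tspo, a cholesterol-binding protein of the outer mitochondrial membrane, passed in no comparison among stages I, V and VIII, with group means between 8.10 and 8.91. The 3 clones of hormone-sensitive lipase (2 of lipe1 and 1 of lipea), which frees cholesterol from its esters, were at least 1.32-fold to 2.02-fold higher in stage V than in stage I, where 4 of 5 arrays or all 5 were under background, and at least 1.32-fold to 1.78-fold lower in stage VIII than in stage V. From stage I to stage V these clones thus rose while the 3 steroid enzymes fell. Which cells of the stage V testis, germ cells among them, carried the lipase signal was not tested.

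Cyp11b, which hydroxylates androgens on the way to 11-ketotestosterone, was called, like hsd3b1, between stages VIII and V and not between stages VIII and I. Its signal was 8.38, 9.22 and 9.08 in stage VIII testes, against 7.52, 7.49, 7.36 and 7.28 in stage V testes. In stage I testes it was 8.29, 9.07, 9.05, 8.91 and 8.88. Stage VIII and stage I overlapped, with a change of 0.06 ± 0.27 (adjusted p = 0.91 by limma), while stage VIII exceeded stage V, under background on all 4 arrays, at least 1.66-fold (adjusted p = 6.5e-05). The clone was chosen after its values were seen, since it was not on the list under this symbol. Cbr1, a carbonyl reductase matched through a RefSeq synonym, passed in no comparison among whole testes. It was called lower in spermatogonia fractions than in stage I testes (adjusted p = 0.018 by limma). All 6 spermatogonia arrays and 2 of 5 stage I arrays were under background, so no fold is given.

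Of the receptors, lhcgr, the receptor of luteinizing hormone, was at 9.48, 9.40 and 9.76 in stage VIII testes, against 7.80, 7.76, 7.82, 7.67 and 8.07 in stage I testes. Spawning values were well above background and stage I values were all under it. The spawning signal was thus at least 2.61-fold higher (adjusted p = 8e-08 by limma). The oestrogen receptor esr1 was likewise at 9.26, 10.06 and 8.68 in stage VIII testes, against 7.05, 7.06, 7.56, 6.85 and 7.58 in stage I testes (at least 2.25-fold higher, adjusted p = 1.8e-07). Both were under background on all stage V arrays too, so that a fall between stages I and V could not have been measured. The second oestrogen receptor, esr2a, and both clones of the glucocorticoid receptor nr3c1, which binds the cortisol that hsd11b2 inactivates, passed in no comparison among stages I, V and VIII. Esr2a was under background on all stage I and stage V arrays and on 2 of 3 stage VIII arrays. The nr3c1 clone tcbk0026.a.09 was under background on all arrays of these stages. For both, a fall from stage I could not have been measured. Igf1, a growth factor, was called lower in stage VIII than in stage I (adjusted p = 0.04), but it was under background on all arrays of both stages, and no fold is given.

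**Figure D3:**
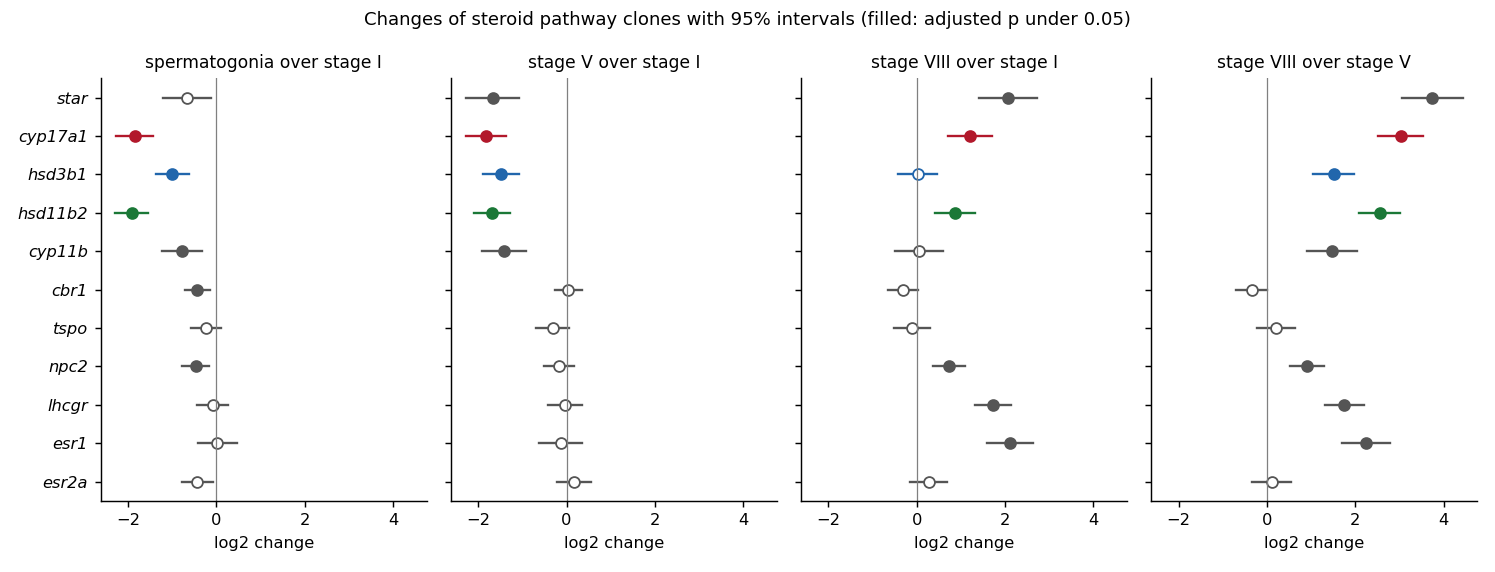
Log2 changes with 95% intervals of the 3 enzyme clones (coloured) and 8 other steroid pathway clones (grey) in spermatogonia over stage I, stage V over stage I, stage VIII over stage I and stage VIII over stage V; filled points have an adjusted p under 0.05 by limma, and signals under background enter as measured. In stage VIII over stage I, star, cyp17a1, hsd11b2, npc2, lhcgr and esr1 lie to the right of 0, and hsd3b1 (0.02) and cyp11b (0.06) lie at it.

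Over the 9 group means, the profiles of cyp17a1 and hsd11b2 correlated at r = 0.98, those of hsd3b1 and hsd11b2 at 0.90 and those of cyp17a1 and hsd3b1 at 0.86. The points share arrays and normalization, so these are descriptions. Candidates were the 336 other named clones that passed the F-test over the 9 groups. Among them, the profiles closest to cyp17a1 were those of gbrap (0.98), LOC101268953 (0.97) and cpi1 (0.97). Closest to hsd11b2 were csrp1 (0.98), glulb (0.98), a glutamine synthetase, and crtam (0.97). Closest to hsd3b1 were ly75 (0.97), an endocytic receptor of immune cells, cyp11b (0.97) and ctsc (0.97), a lysosomal protease. Csrp1, crtam and LOC101268953 were among the 5 closest clones of both cyp17a1 and hsd11b2.

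**Figure D4:**
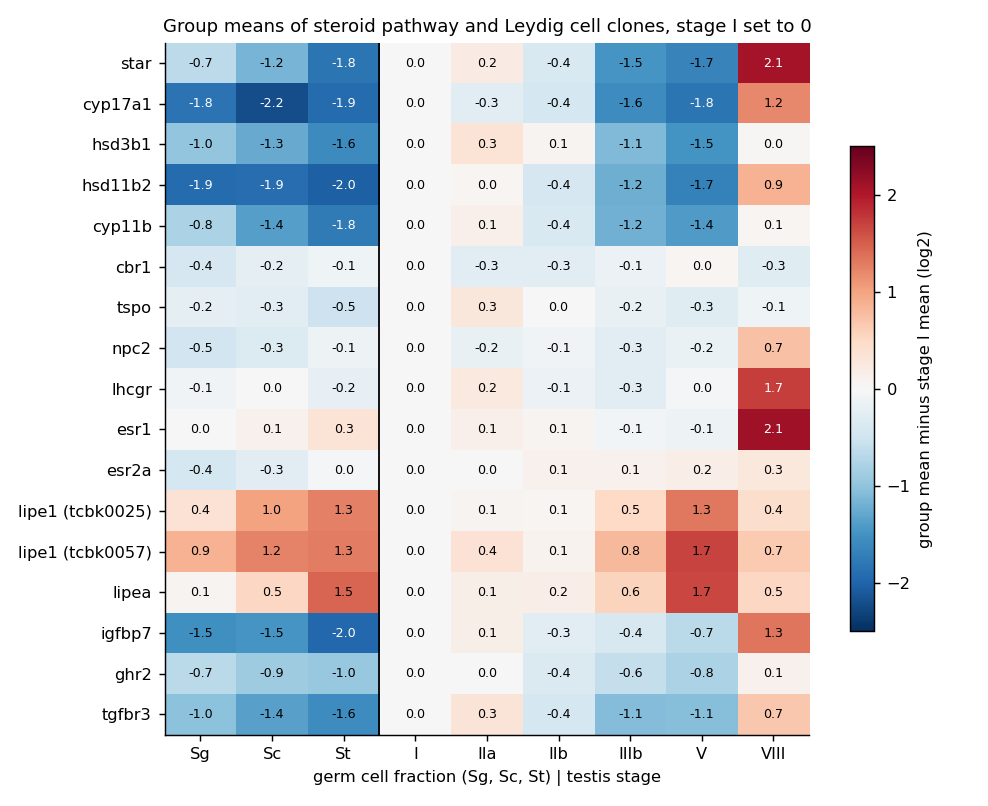
Group means of steroid pathway and Leydig cell clones, each as the log2 difference from its stage I mean (columns: the Sg, Sc and St fractions and the testis stages; colours: red above and blue below stage I). Cyp17a1, hsd11b2 and star turn from blue at stage V to red at stage VIII, hsd3b1 and cyp11b turn from blue to near 0, and lhcgr and esr1 stand out at stage VIII.

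Within groups the enzymes varied together only weakly. Deviations from the group means over the 38 arrays gave r = 0.45 for cyp17a1 and hsd3b1 (Spearman's rho = 0.43, permutation within groups, p = 0.031, adjusted p = 0.085 over 3 pairs), r = 0.40 for hsd3b1 and hsd11b2 (rho = 0.38, permutation p = 0.057, adjusted p = 0.085) and r = -0.11 for cyp17a1 and hsd11b2 (rho = -0.08, permutation p = 0.61). For rho the permutation p was 0.029, 0.055 and 0.68 in the same order (adjusted p = 0.082, 0.082 and 0.68). No pair passed after adjustment, although the first did without stage IIb replicate 2, spermatogonia replicate 3 or spermatocyte replicate 6 (adjusted p between 0.027 and 0.049). Without the 2 arrays farthest from the median of the first gene, r was 0.36, 0.36 and -0.01. Cyp17a1 and hsd3b1 gave r = 0.56 in whole testes (permutation, adjusted p = 0.13) and 0.37 in fractions (adjusted p = 0.36), while hsd3b1 and hsd11b2 gave 0.07 in whole testes (adjusted p = 0.81) and 0.66 in fractions (adjusted p = 0.081).

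**Figure D5:**
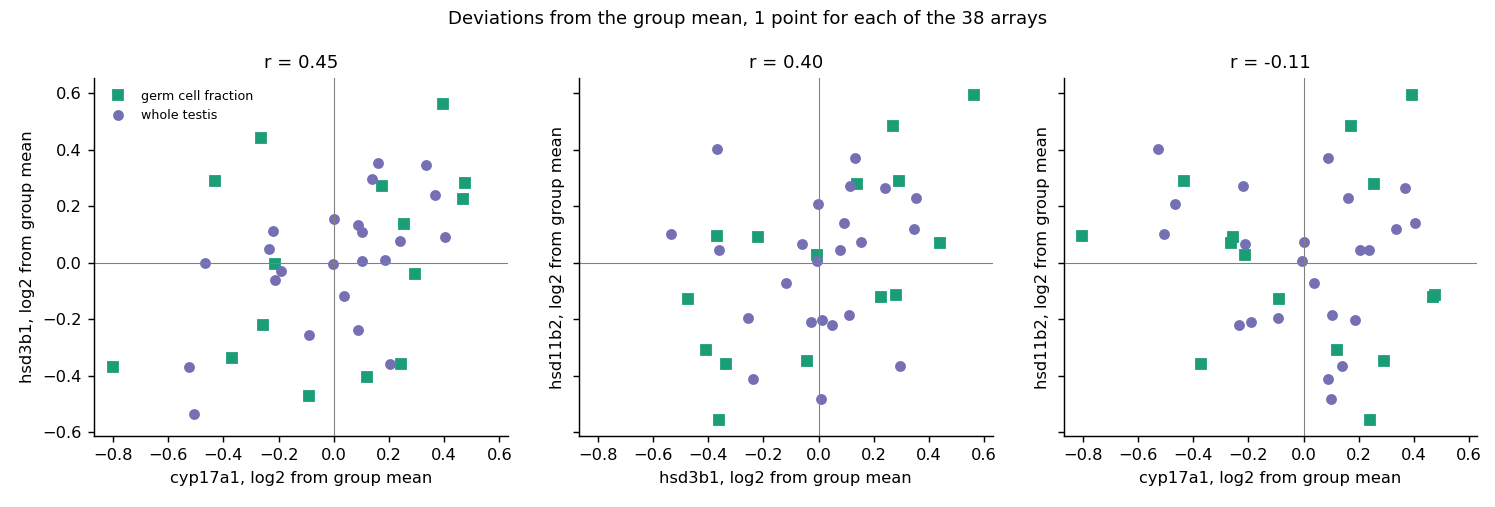
Deviation of each array from its group mean for 2 enzyme clones at a time (log2 units on both axes; squares: 15 germ cell fractions; circles: 23 whole testes). Points lean upward for cyp17a1 with hsd3b1 (r = 0.45) and for hsd3b1 with hsd11b2 (r = 0.40) and have no slope for cyp17a1 with hsd11b2 (r = -0.11).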

How the data were processed

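According to the Methods, 33P-labelled cDNA of total RNA was hybridised to nylon arrays. To correct for spotted cDNA, the authors scaled each spot's signal by its vector signal relative to the median vector signal of that spot, and the deposited values are log2 of these after quantile normalization in AMEN. They were used as deposited. Of 9216 entries 192 were empty, and 190 clones lacked a value on some array. The authors' filter on weak vector signals was not applied. Arrays give no read depth, and the number of arrays per group (3 to 6) limits precision.

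For all 38 arrays, 1 mean per group was estimated using limma 3.58.1 (R 4.3.3) (prior df 7.30, residual df 29). P-values were adjusted by Benjamini and Hochberg over all clones with values, with thresholds of 0.005 for the F-test, as in the study, and 0.05 for each comparison. Differences between clones were tested by exact permutation, and correlations with 100000 permutations within groups (scipy 1.17.1, numpy 2.4.6). Scripts were tested on simulated data. The named genes were the 3 enzymes, the clones of the lists and the most similar profiles. Symbols came from the platform annotation, which named 678 clones (1 with several symbols), and 1 list clone was matched through a RefSeq synonym. The enzymes and lists were chosen with earlier results of these data known. Cyp11b and a second sox9 clone were added after the lists. Sequences were not used here. Alternatives were other floors, normalizations, weights, priors, sample sets, filters, a replicate block and leaving out arrays.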

Additional observations from a re-analysis of the deposited data

Results flagged for a closer look

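In stage IIb testes the lowest cyp17a1 signal, 9.54 in replicate 1, stood away from the other 3, which were between 10.11 and 10.22. It was the only such array in 18 groups of 4 or more samples examined for the 3 enzymes, a test that flags about 1 in 20 groups by chance. Without this array, the change of cyp17a1 in stage IIb over stage I was -0.28, against -0.44 with it, and neither passed.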

How the results depend on the processing

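A trended robust prior and testing only clones above background changed no call or direction. Repeated quantile normalization and centring on the median changed none either. The deposited values were already quantile-normalized to a common median, so these last settings could hardly change a result and are no check of the normalization. With signals under the median raised to it, hsd11b2 in spermatocytes (Sc) over spermatogonia (Sg) became -0.016 and cyp17a1 in Sg over stage V 0.030, and hsd3b1 in spermatids (St) over Sg was lost (-0.60). The clones called became 24, against 1, for stage IIa over I, 70, against 21, for stage IIb over I, 16, against 0, for stage V over IIIb and 1606, against 2428, for Sc over Sg. With array weights, cyp17a1 passed in Sc over Sg (-0.56, adjusted p = 0.021 by limma), hsd3b1 and hsd11b2 passed in Sg over stage V (0.38 and -0.40), hsd3b1 in St over Sg was lost (-0.52), and uncalled changes turned for hsd11b2 in stage IIa over I (-0.12) and St over Sg (0.049) and for cyp17a1 in Sg over stage V (0.063). Counts then became 180 for stage IIa over I, 128 for stage IIb over I, 1972, against 635, for stage IIIb over IIb, 540 for stage V over IIIb, 4634, against 2784, for stage V over I, 3292, against 2189, for stage VIII over I, 3885, against 2402, for Sg over stage I, 902, against 1926, for St over Sg, 3769, against 1958, for Sg over stage V and 1644, against 613, for Sc over stage V. Fits of only the 2 groups gave 0 for stage IIa over I, 9 for stage IIb over I, 151 for stage V over IIIb and 856 for St over Sg, where hsd3b1 was lost (-0.60). Without spermatid replicate 3, 7 clones passed for stage V over IIIb. The causes were not tested.

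With single stages I, V and VIII in place of the classes, no difference between clones passed after adjustment (fewer arrays): cyp17a1 minus hsd3b1 was 1.52 in spawning over maturing and 1.18 in spawning over immature testes, and hsd11b2 minus hsd3b1 was 1.04 and 0.85 (adjusted p = 0.13 each by exact permutation). Hsd11b2 minus hsd3b1 in maturing over immature testes, uncalled, became -0.20.

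Replicate numbers did not pair samples: arrays of one number in different groups correlated at -0.00 on average (between -0.40 and 0.56), and 9 of 38 correlated best with their own number. A replicate block gave 2 calls for stage IIa over I and 9 for stage IIb over I, turned hsd3b1 in stage VIII over I to -0.0066 (adjusted p = 0.99 by limma) and changed no call of the 3 clones.

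Leaving out single arrays, stage IIIb over IIb was -1.33 to -1.02 for cyp17a1 and -0.95 to -0.69 for hsd11b2. Uncalled changes turned for hsd11b2 in stage IIa over I (-0.084 to 0.14), hsd3b1 in stage IIb over I (-0.050 to 0.19) and stage VIII over I (-0.12 to 0.29), cyp17a1 in Sg over stage V (-0.13 to 0.13) and St over Sg (-0.31 to 0.048), and hsd11b2 in Sc over Sg (-0.10 to 0.13), where cyp17a1 gave -0.53 to -0.28. Cyp17a1 minus hsd3b1 was -0.095 to 0.014 in maturing over immature, 1.504 to 1.65 in spawning over maturing and 1.46 to 1.60 in spawning over immature testes, and hsd11b2 minus hsd3b1 was 0.68 to 1.33 and 0.77 to 1.42 in the last 2. The correlation of cyp17a1 with hsd3b1 was 0.37 to 0.53. Clones called ranged over 0 to 22 for stage IIa over I, 5 to 26 for stage IIb over I, 227 to 534 for stage IIIb over IIb, 679 to 2839 for St over Sg, 364 to 817 for Sc over stage V and 1358 to 2158, against 2109, for stage VIII over IIa. Limits are 3 spawning arrays and hsd11b2 signals near background in fractions and stage V.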

Other observations

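The 6 spermatogonia fractions were unequal for hsd3b1, which gave 9.99, 9.07, 9.72, 9.06, 9.71 and 9.02 in replicates 1 to 6. In the same order cyp17a1 gave 8.99, 8.84, 8.17, 7.80, 9.07 and 8.72, and hsd11b2 gave 8.49, 7.34, 8.18, 7.99, 7.78 and 7.58. Of the other steroid pathway clones, cyp11b gave 8.67, 7.36, 8.32, 8.09, 8.24 and 7.66, and star gave 9.85, 8.15, 8.92, 8.81, 8.98 and 8.52. The mean of the 5 peritubular and matrix clones was 10.13, 9.16, 9.72, 9.57, 9.78 and 9.18, and that of the 10 red blood cell clones was 10.01, 10.70, 9.48, 9.99, 11.29 and 10.88. The mean of the Leydig cell list was 7.73, 7.39, 7.69, 7.48, 7.28 and 7.47, lowest in replicate 5. That of the Sertoli cell list was 8.19, 7.80, 7.80, 7.59, 8.03 and 7.88. The labels put all 6 in one group, and no difference among them was tested.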
